A study of Mus musculus with 2 samples.

Results

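The 10 genes described here form the core of the mammalian circadian clock and its best known output in mouse fibro-adipogenic progenitors (FAPs): Arntl and Clock, Per1, Per2, Per3, Cry1, Cry2, Nr1d1, Nr1d2 and Dbp. They were chosen by gene symbol, and all 10 were found among the 26082 genes of the deposited tables. FAPs are resident mesenchymal cells of skeletal muscle that can become adipocytes. Primary wild-type cells, sorted from hind limb muscle of C57BL/6 mice by the study's methods, received either plasmids for TGFBR3 overexpression or the vector, and 1 library was sequenced from each, so the comparison has no replicates and no p-value is given. By their labels both libraries came from cells under adipogenic differentiation, for which the medium held insulin at 10 μg/ml, dexamethasone at 0.25 μM, IBMX at 0.5 mM and 20% FBS. The plasmid's promoter, the share of cells transfected and the hours between the change of medium and harvest are not given in the sources used here.

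The clock is a loop of transcription. ARNTL (also called BMAL1) and CLOCK bind E-boxes as a pair and switch on the Per, Cry and Nr1d genes and Dbp. PER and CRY proteins then inhibit that pair, and NR1D1 and NR1D2 (REV-ERBα and REV-ERBβ) repress Arntl. In cells whose clocks run together, the transcripts of Dbp, Nr1d1, Nr1d2 and the Per genes are high in 1 part of the cycle and Arntl is high in the opposite part. Clocks of cultured fibroblast-like cells are known to be reset by serum, by dexamethasone and by agents that raise cAMP such as IBMX, all of which were in the medium of both libraries.

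The library labelled TGFBR3 OE held 62321027 counts and the library labelled control 83779203. FPKM is the count divided by gene length and by a library total, and the measure used here is the log2 ratio of (FPKM + 1), TGFBR3 OE label over control label. Intervals are at the 95% level, exact by the Clopper-Pearson method for how a gene's reads divide between the libraries, and cover counting error only. Tgfbr3 itself had FPKM values of 36.9 and 35.1 (log2 ratio 0.07, 95% interval 0.04 to 0.10), below the shift of 0.13 of the median gene among 10626 genes whose FPKM reached 1 in each library. The overexpression is thus not visible in the RNA of the gene in these libraries, which are named by their labels throughout. The paper also measured TGFBR3 by real-time PCR in FAPs given the plasmids or vectors, which is not part of these data. Among FAP markers Pdgfra was at 30.5 and 32.6 FPKM and Ly6a at 1013 and 706, whereas Lum was at 0.27 and 0.03. Of the 8 FAP markers 5 had a log2 ratio below 0, among them Col3a1 (−1.05), Col1a1 (−0.89), Gsn (−0.55) and Cd34 (−0.30), and the median of the 8 was −0.20. The 8 FAP markers summed to 2025 and 2407 FPKM, the 6 adipocyte markers to 47.3 and 85.2, the 7 macrophage markers to 0.78 and 0.49, the 5 endothelial markers to 2.17 and 2.03 and the 2 muscle markers in the tables to 1.13 and 0.81. Adgre1 and Tyrobp were at 0 counts in both, and Pax7, Myod1 and Myf5 were absent, by symbol, from the 26082 genes. The adipocyte markers, 5 of 6 of which were lower, led by Cfd (log2 ratio −1.29) and Adipoq (−1.07), thus moved with the comparison, as did the FAP markers, and the part of either in any clock gene's difference was not tested. In bulk RNA, fewer cells of a type and less RNA per cell cannot be told apart.

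The promoters show which members carry the short sequences through which the loop acts, and they are printed because members with an E-box or the related E'-box are direct textbook targets of ARNTL and CLOCK. RefSeq windows on GRCm38.p6, the assembly of mm10, run from 250 bases before to 50 after each start, and 9 members matched with 13 windows. Per2 was not searched. Both strands were searched for the E-box CACGTG, the E'-box CACGTT, the D-box TTATGTAA bound by DBP, the element TAGGTCA bound by ROR and NR1D proteins, and the cAMP response element TGACGTCA, none of which overlapped another match in the members. Capitals mark the matches, positions are counted from the start of transcription, and all sequences read 5′ to 3′ on the strand of the gene.

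Per1, chr11:69098763-69098808, plus strand, E-box at −166: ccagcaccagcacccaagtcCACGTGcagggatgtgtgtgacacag
Cry1, chr10:85185089-85185153, minus strand, E'-box at −79 and E-box at −60: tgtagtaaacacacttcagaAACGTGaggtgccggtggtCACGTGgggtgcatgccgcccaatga
Cry2, chr2:92434210-92434255, minus strand, E'-box at −166: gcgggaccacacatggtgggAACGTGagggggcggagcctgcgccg
Nr1d1, chr11:98775380-98775425, minus strand, E'-box at −28: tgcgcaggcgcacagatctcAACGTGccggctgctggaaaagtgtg
Per3, chr4:151044796-151044890, minus strand, D-boxes at −205 and −158: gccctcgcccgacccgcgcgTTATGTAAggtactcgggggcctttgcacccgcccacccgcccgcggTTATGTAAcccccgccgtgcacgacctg
Arntl, chr7:113207530-113207558, plus strand, ROR element at 31 after the start: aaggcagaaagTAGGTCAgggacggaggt

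The E-box was in windows of 2 members (Per1 and Cry1) and in 7.15% of all 32851 windows. The E'-box was in those of 3 members (Cry1, Cry2 and Nr1d1) and in 4.68% of all windows. Per3 alone among the 9 searched members held the D-box, which 0.938% of all windows hold, and Arntl alone held the ROR element, at 2.61% of all windows. No searched window of a member held the cAMP response element, which was in 1.79% of all windows. The windows of Clock, Nr1d2 and Dbp held none of the 5, which says nothing of sites further away.

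None of the 10 clock genes differed by 2-fold between the libraries. Log2 ratios lay between −0.49 (Dbp) and 0.48 (Cry2), and their median was 0.31, against 0.14 over the 11213 genes whose FPKM averaged 1 or more. Shares of all genes given below are over these genes, or over the 11207 of them with a known exon GC content. Correction for exon GC content, by removing its trend across genes, left the members at a median of 0.15 with 6 of the 10 above 0, against 50.0% of all genes. The same correction for exon length left a median of 0.09. Over the 11213 genes 3.14% were at least 2-fold higher and 1.03% at least 2-fold lower in the library labelled TGFBR3 OE. At 1.5-fold the background was 13.3% higher and 4.91% lower, and again none of the 10 members was past it. Without the added 1 Clock, Cry1 and Dbp were past 1.5-fold, but the share of all genes was not counted on that scale. More genes pass there, at 2-fold 735 against 352 higher and 206 against 116 lower. Among the members 8 had a ratio above 0, all with intervals above 0, where 63.1% of all genes did. Dbp was lower with its interval below 0, and the interval of Per3 included 0. Relative to the median gene 7 members were higher, against 51.3% of all genes. On that centred scale none was 1.5-fold higher (background 7.85%) and Dbp was 1.5-fold lower (background 8.09%). All members but Per3, at a mean of 0.73 FPKM, passed the filter of a mean FPKM of 1, and counts ran from 454 to 6025, far above the floor of 3 counts.

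**Figure D1:**
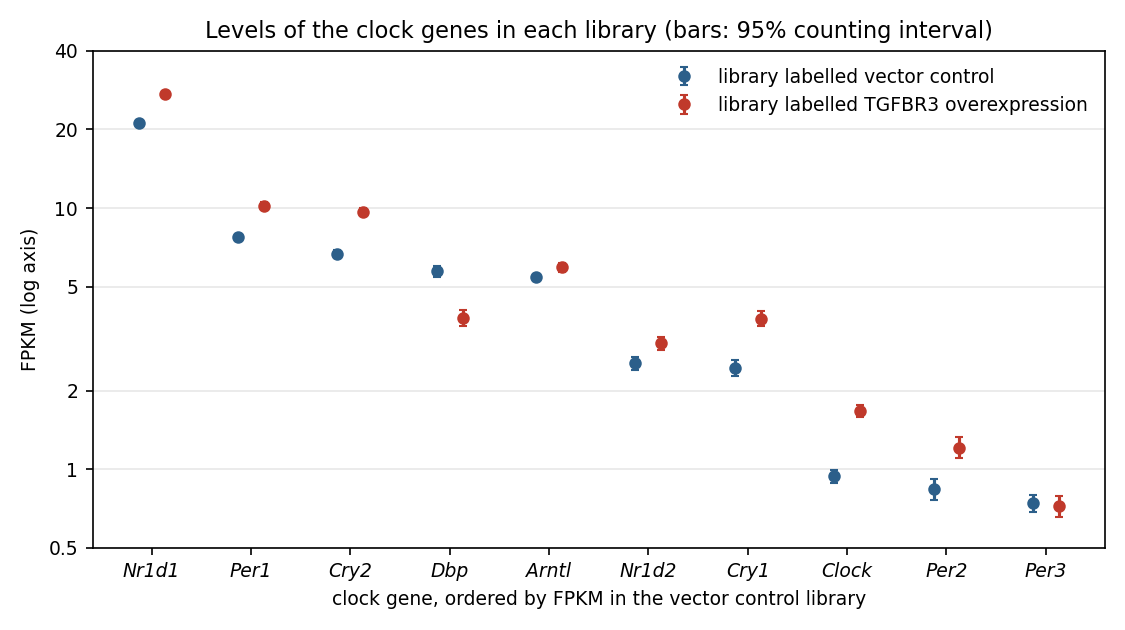
FPKM (log axis) of each clock gene in the library labelled control (blue) and in the library labelled TGFBR3 overexpression (red), with 95% exact Poisson counting intervals as bars. Nr1d1 was the highest member in both libraries, and Dbp, at 5.73 and 3.80 FPKM, was the member whose red point lay clearly below its blue point.

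The order of the levels, in FPKM and thus per length, was much alike in both libraries. In the library labelled control it ran Nr1d1 (21.2), Per1 (7.73), Cry2 (6.67), Dbp (5.73), Arntl (5.42), Nr1d2 (2.54), Cry1 (2.44), Clock (0.94), Per2 (0.84) and Per3 (0.74). Of these neighbours, the 95% Poisson counting intervals overlapped between Dbp and Arntl, Nr1d2 and Cry1, Clock and Per2, and Per2 and Per3. In the library labelled TGFBR3 OE the order was Nr1d1 (27.3), Per1 (10.2), Cry2 (9.68), Arntl (5.92), Dbp (3.80), Cry1 (3.77), Nr1d2 (3.03), Clock (1.67), Per2 (1.21) and Per3 (0.72). There the intervals of Per1 and Cry2 overlapped (9.89 to 10.5 and 9.39 to 9.98), as did those of Dbp and Cry1 (3.54 to 4.08 and 3.52 to 4.03). Dbp and Arntl thus exchanged places, as did Cry1 and Nr1d2. FPKM rests on the summed length of all annotated exons, so a long gene such as Clock, with 13727 exon bases, has a lower FPKM for its counts than Dbp, with 2993.

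Arntl and Clock encode the activator pair. Arntl (ENSMUSG00000055116, chromosome 7 of mm10, 113207465 to 113314126) was at 5.92 FPKM in the library labelled TGFBR3 OE and 5.42 in the library labelled control, from 3026 and 3770 counts. Its log2 ratio was 0.11 (95% interval 0.05 to 0.17) and −0.02 relative to the median gene, so that it stood with the middle of all genes. Clock (ENSMUSG00000029238, chromosome 5, 76209868 to 76304792) was at 1.67 and 0.94 FPKM, from 1557 and 1199 counts, so that the shallower library held more reads. Clock's log2 ratio was 0.46 (95% interval 0.40 to 0.52), and without the added 1, which weighs on low genes, it was 0.83 (95% interval 0.72 to 0.94), or 1.78-fold. The FPKM of Clock was 0.173 times that of Arntl in the library labelled control and 0.282 times in the other. The partners therefore did not keep their proportion, with a difference of 0.70 between their plain log2 ratios (95% interval 0.57 to 0.83).

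Exon base composition moved with these values. Across 11207 genes the log2 ratio went from a median of 0.45 in the poorest of 20 bins of exon GC content to −0.25 in the richest. Clock, at 40.8% GC, lay in a bin with a median of 0.43, and with that trend removed its log2 ratio was 0.03 (0.24 for the plain ratio). The corresponding value of Arntl, at 48.4% GC, was −0.05. The difference between the partners was 0.31 on plain ratios with the trend removed. What produced the trend was not tested.

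**Figure D2:**
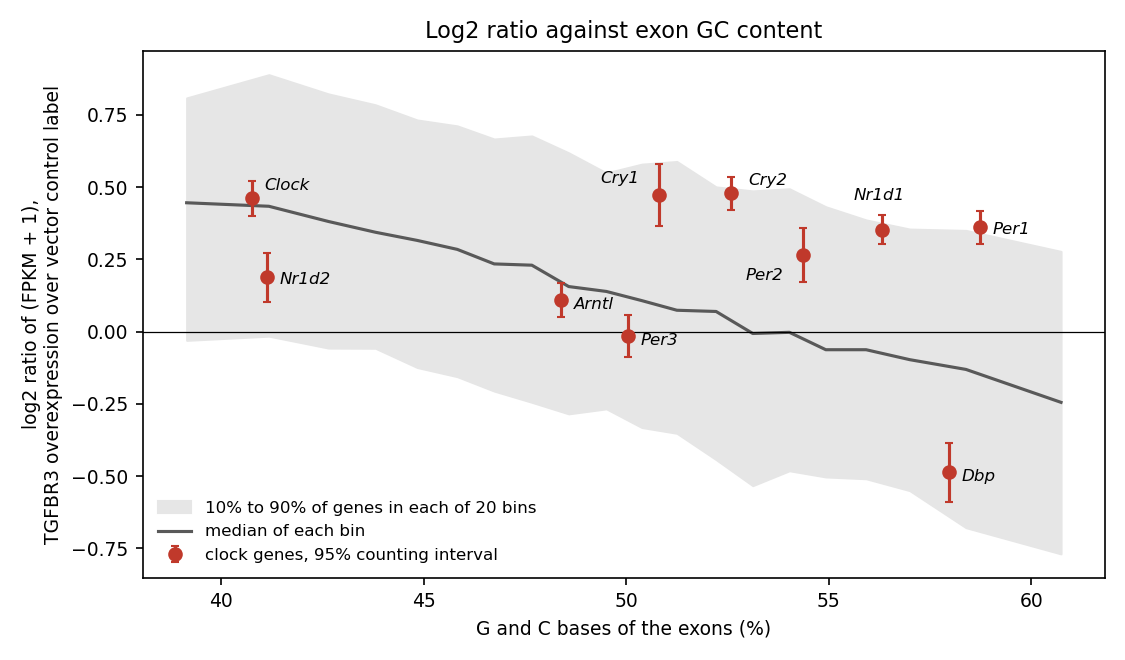
Log2 ratio of (FPKM + 1) against the percent of G and C bases in the exons, with the median (line) and the range from 10% to 90% of genes (grey) in each of 20 bins, and the clock genes in red with 95% counting intervals. Clock lay on the line, Nr1d2 and Dbp lay below it, and Per1, at 0.36, lay just above the grey range, which ended at 0.35 in its bin.

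The Per genes encode the repressors that accumulate after activation, and Per1 and Per2 are also known as genes that serum, glucocorticoids and cAMP induce directly. Per1 (ENSMUSG00000020893, chromosome 11, 69095217 to 69109960) was at 10.2 and 7.73 FPKM, from 3901 counts under the TGFBR3 OE label and 4028 under the control label. Its log2 ratio was 0.36 (95% interval 0.30 to 0.42). With 58.7% GC it was 1 of the most GC-rich members, and with the GC trend removed the value was 0.49. In its bin 90.9% of 560 genes had a lower ratio. Per2 (ENSMUSG00000055866, chromosome 1, 91415982 to 91459324) was at 1.21 and 0.84 FPKM, from 480 and 454 counts. The log2 ratio of Per2 was 0.26 (95% interval 0.17 to 0.36), and 0.53 (95% interval 0.34 to 0.71) without the added 1. Per3 (ENSMUSG00000028957, chromosome 4, 151003652 to 151044665) was at 0.72 and 0.74 FPKM, from 471 and 654 counts. No difference in Per3 was detectable at this depth, at a log2 ratio of −0.02 (95% interval −0.09 to 0.06).

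Within the family Per1 made up 84.1% of the summed FPKM under the TGFBR3 OE label and 83.0% under the control label. Per1 and Per2 kept their proportion within counting error, with a difference in plain log2 ratio of −0.13 (95% interval −0.32 to 0.07). Per3 was lower relative to Per1 by a difference of −0.44 (95% interval −0.62 to −0.26) and relative to Per2 by −0.57 (95% interval −0.82 to −0.31). With the GC trend removed from plain ratios these were −0.73 and −0.71. Per3 did not differ from Arntl beyond counting error (difference −0.17, 95% interval −0.35 to 0.02).

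The Cry genes encode the stronger repressors of the loop, and on the scale of (FPKM + 1) they had the largest log2 ratios of the 10, while without the added 1 that of Clock was larger. Cry1 (ENSMUSG00000020038, chromosome 10, 85131700 to 85185064) was at 3.77 FPKM under the TGFBR3 OE label and 2.44 under the control label, from 856 and 755 counts. Cry1 had a log2 ratio of 0.47 (95% interval 0.36 to 0.58), or 0.63 without the added 1. Cry2 (ENSMUSG00000068742, chromosome 2, 92403646 to 92434043) was at 9.68 and 6.67 FPKM, from 4151 and 3898 counts. Its log2 ratio was 0.48 (95% interval 0.42 to 0.53), or 0.54 without the added 1. Relative to the median gene the values were 0.35 for both, and with the GC trend removed 0.36 and 0.41. The family sum was 13.4 FPKM against 9.11, in which Cry2 held 72.0% and 73.2%. The proportion of Cry1 to Cry2 differed by less than counting error (difference 0.09, 95% interval −0.06 to 0.24), although Cry1 is the member known for the stronger rhythm. In Cry2, 4.67% of exon bases overlap a noncoding gene on the opposite strand, D930015M05Rik, which had 28 and 43 counts.

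Nr1d1 and Nr1d2 encode the nuclear receptors that bind haem and repress Arntl. Nr1d1 (ENSMUSG00000020889, chromosome 11, 98767932 to 98775333) was the most abundant member, at 27.3 FPKM under the TGFBR3 OE label and 21.2 under the control label, from 5706 and 6025 counts. Its log2 ratio was 0.35 (95% interval 0.30 to 0.40), 0.23 relative to the median gene and 0.42 with the GC trend removed. Its 3′ end overlaps that of Thra, the thyroid hormone receptor α gene on the opposite strand, over 8.55% of the exon bases of Nr1d1. Thra was lower, at 12.3 and 21.9 FPKM (log2 ratio −0.78, 95% interval −0.83 to −0.73), in the direction opposite to Nr1d1. The libraries were stranded by the study's methods, but whether the counting used strand is not given in the sources used here, and without it reads in the overlap could not be told apart. Nr1d2 (ENSMUSG00000021775, chromosome 14, 18204054 to 18239127) was at 3.03 and 2.54 FPKM, from 1113 and 1274 counts. Of the 31-base stretches in its transcripts 9.51% also occur in transcripts of other genes on either strand, without overlap of exons. How reads there were assigned is not given in the sources used here. The log2 ratio of Nr1d2 was 0.19 (95% interval 0.10 to 0.27), but at 41.1% GC it lay below its bin's median, and with the GC trend removed it was −0.25. The receptors kept their proportion within counting error in plain FPKM (difference −0.11, 95% interval −0.24 to 0.01), while the difference was −0.78 on plain ratios with the GC trend removed. Arntl, the target of both, had log2 ratios between −0.11 and 0.17 under the 8 alternative settings.

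Dbp encodes a PAR bZIP activator whose transcript is 1 of the strongest outputs of the clock in many tissues. On the scale of (FPKM + 1) Dbp was the only member with an interval below 0. Dbp (ENSMUSG00000059824, chromosome 7, 45705088 to 45710203) was at 3.80 FPKM in the library labelled TGFBR3 OE and 5.73 in the library labelled control, from 773 and 1586 counts. Its log2 ratio was −0.49 (95% interval −0.59 to −0.39), and the plain FPKM was 1.51-fold lower (95% interval 1.38 to 1.65). The value stayed below 0 under all 8 alternative settings, between −0.61 and −0.36, the latter with the GC trend removed. Nr1d2, Per3 and Arntl were also below 0 with that trend removed, at −0.25, −0.12 and −0.05. Among all genes 7.17% had a lower ratio than Dbp, and among the 560 genes of its GC bin 17.3% did. Other members lay further from the middle of their bins. There 90.9% of genes were lower than Per1, 88.2% than Cry2, 88.1% than Nr1d1 and 83.6% than Cry1. Sphk2, a sphingosine kinase gene on the opposite strand, overlaps 18.0% of the exon bases of Dbp and had a log2 ratio of −0.03 (95% interval −0.09 to 0.04).

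Comparison within a library removes the scaling between libraries. Dbp stood at 0.270 times the FPKM of Nr1d1 in the library labelled control and at 0.139 times in the library labelled TGFBR3 OE. Relative to Per1 it was at 0.741 and 0.372, and relative to Arntl at 1.06 and 0.642. These proportions moved by a log2 difference of −0.96 for Nr1d1 (95% interval −1.09 to −0.83), −0.99 for Per1 (95% interval −1.13 to −0.85) and −0.72 for Arntl (95% interval −0.86 to −0.58). Since Dbp had the lowest ratio of the 10, its difference from each other member is below 0 by construction, and the sizes are what the data add, from −1.42 (Clock) to −0.55 (Per3). With the GC trend removed they ran from −0.99 (Per1) to −0.10 (Nr1d2).

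**Figure D3:**
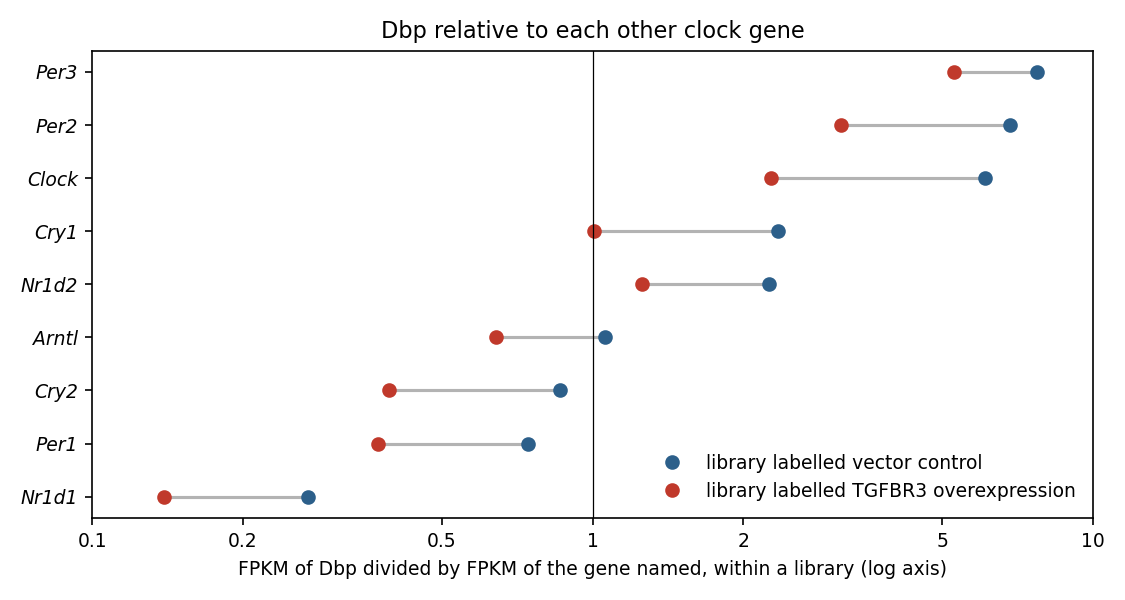
FPKM of Dbp divided by the FPKM of each other clock gene within the same library (log axis), for the library labelled control (blue) and the library labelled TGFBR3 overexpression (red). Each red point lies left of its blue point, for example 0.139 against 0.270 for Nr1d1 and 1.01 against 2.35 for Cry1.

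Whether the libraries stood at different points of the cycle was examined by setting the output arm (Dbp, Nr1d1, Nr1d2, Per1, Per2 and Per3), whose transcripts peak in the same broad part of the cycle, against the activator arm (Arntl and Clock). The output arm did not move as a block. Relative to the median gene Nr1d1 and Per1 stood at 0.23 each, Per2 at 0.14, Nr1d2 at 0.06, Per3 at −0.14 and Dbp at −0.61. Before centring Nr1d2 was also above 0, at 0.19 (95% interval 0.10 to 0.27). The medians of the arms were 0.23 and 0.28, a difference of −0.06. This difference was 0.08 with the GC trend removed and 0.02 with the trend over exon length removed, so that its sign was not fixed. The activator median rests on 2 genes, and the opposite timing described above is that of Arntl, not of Clock. Removal of the GC trend took Clock from 0.46 to 0.03 and Arntl from 0.11 to −0.05. Nr1d1 and Dbp, which are known to peak close together, lay on opposite sides of 0. Nr1d1 and Arntl, which are known to be opposed, were both above 0 in FPKM. Relative to the median gene they were at 0.23 and −0.02, and with the GC trend removed at 0.42 and −0.05. Nr1d1 stood at 4.62 times Arntl under the TGFBR3 OE label against 3.91 times under the control label. In plain log2 ratio Nr1d1 differed from Arntl by 0.24 (95% interval 0.15 to 0.33). Per1 differed from it by 0.27 (0.18 to 0.37) and Per2 by 0.40 (0.20 to 0.60). Nr1d2 differed by 0.13 (−0.01 to 0.26), Per3 by −0.17 (−0.35 to 0.02) and Dbp by −0.72 (−0.86 to −0.58). With the GC trend removed these were 0.52, 0.63, 0.60, −0.26, −0.10 and −0.36, in that order. A difference in phase, a difference in amplitude and a difference in level cannot be told apart from 1 harvest for each condition.

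**Figure D4:**
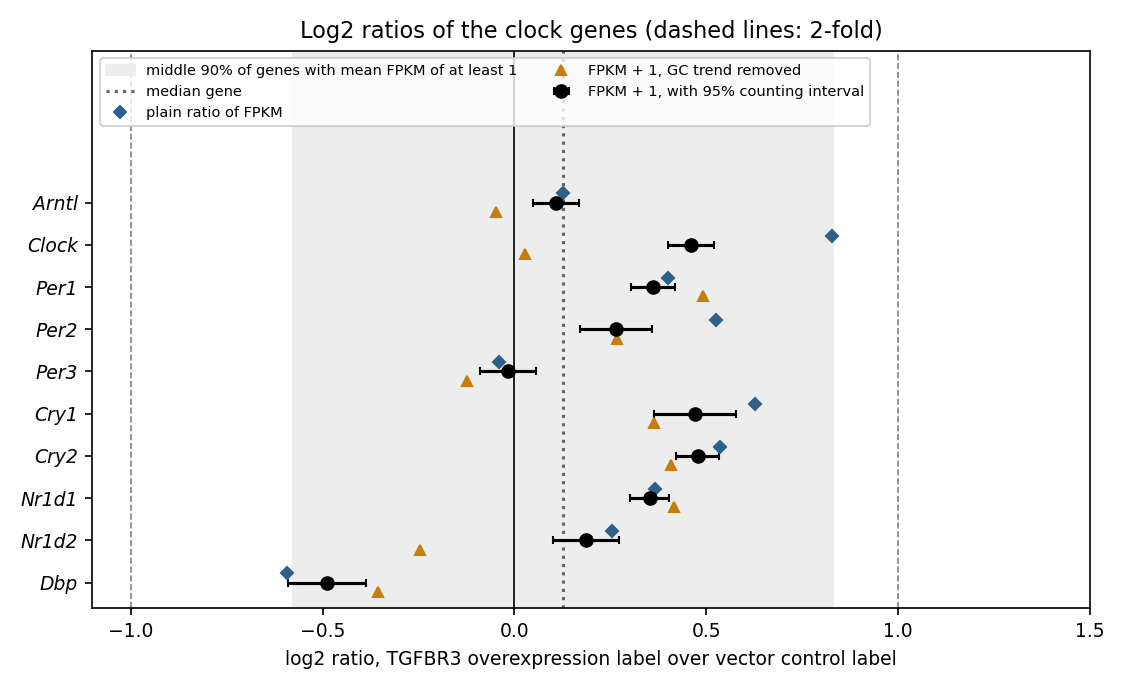
Log2 ratio of each clock gene, TGFBR3 overexpression label over control label, from (FPKM + 1) with its 95% counting interval (black), from plain FPKM (blue) and after removal of the GC trend (orange). Grey spans the middle 90% of all genes, from −0.58 to 0.83, the dotted line is the median gene at 0.13, and all black points lie inside the dashed 2-fold lines.

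The other transcription factors tied to the clock were in the list with 11 genes, of which 7 had a ratio above 0 and 4 below. The 63.1% of all genes above 0 is over genes averaging 1 FPKM or more, as 8 of the 11 did. None of the 11 was 2-fold different with the added 1. Their median was 0.04, against 0.14 for all genes, or 0.30 over the 8 whose FPKM averaged 1 or more. Ciart, also called CHRONO, a repressor of the ARNTL pair, had the largest value, at 2.43 and 0.94 FPKM from 376 and 197 counts, with a log2 ratio of 0.82 (95% interval 0.68 to 0.96) and 1.37 without the added 1. With the GC trend removed Ciart was at 0.75. Its promoter window is shown because it holds 3 E-boxes, more than that of any member.

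Ciart, chr3:95882247-95882364, minus strand, E-boxes at −116, −58 and −44: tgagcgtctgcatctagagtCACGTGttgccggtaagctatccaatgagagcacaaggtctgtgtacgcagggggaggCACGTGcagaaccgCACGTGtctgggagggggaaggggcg

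Arntl2, a paralog of Arntl, was at 2.39 and 1.37 FPKM (log2 ratio 0.52, 95% interval 0.43 to 0.61), and Rora, which activates Arntl where the NR1D proteins repress it, was at 2.19 and 1.39 (0.42, 95% interval 0.36 to 0.48). With the GC trend removed Rora was at 0.04. Nfil3, which competes with DBP for the D-box, was at 18.7 and 14.5 FPKM (log2 ratio 0.35, 95% interval 0.27 to 0.42), in the direction opposite to Dbp. The PAR bZIP paralogs of Dbp did not share its size on this scale. Tef had 3106 and 4363 counts (log2 ratio −0.04, 95% interval −0.10 to 0.02), although windows at both of its starts hold an E-box, and Hlf was scarce, at 51 and 98 counts. Without the added 1 the log2 ratio of Hlf was −0.54.

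Kinases and ubiquitin ligases that act on clock proteins, with their subunits, make up most of the next list of 18 genes. It also holds Usp2 and Timeless, which are neither. Of the 18 genes, 13 had a ratio above 0, 4 below and 1 at 0, none was 2-fold different with the added 1, and the median was 0.11. Without the added 1 Prkaa1 and the scarce Prkaa2 were past 2-fold, at log2 ratios of 1.07 and 1.61. On that scale 735 of the 11213 genes averaging 1 FPKM or more were at least 2-fold higher. Prkaa1, a catalytic subunit of AMPK, which marks CRY proteins for degradation, was at 14.8 and 7.05 FPKM (log2 ratio 0.97, 95% interval 0.91 to 1.03, and 0.53 with the GC trend removed). Csnk1a1, which encodes casein kinase 1α, was at 28.2 and 17.4 (0.67, 95% interval 0.64 to 0.69, and 0.23 with that trend removed). The kinases best known to phosphorylate PER, Csnk1d and Csnk1e, had log2 ratios of 0.03 and −0.04, each with an interval that includes 0.

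Among genes that the clock is known to drive, 14 of 15 listed were in the tables. Of these 12 had a ratio above 0 and 2 below, where 63.1% of all genes were above 0. That share is over genes averaging 1 FPKM or more, as 13 of the 14 did. Relative to the median gene 9 of the 14 were higher, against 51.3% of all genes. Their median was 0.33, 0.20 relative to the median gene and 0.30 with the GC trend removed, and 2 were at least 2-fold higher, read against the 3.14% of all genes. Nampt, the rate-limiting enzyme of NAD salvage and a textbook E-box target, was at 21.2 FPKM under the TGFBR3 OE label and 7.73 under the control label (log2 ratio 1.35, 95% interval 1.29 to 1.40). Noct, which encodes the rhythmic protein nocturnin, was at 4.68 and 1.76 (1.04, 95% interval 0.98 to 1.10). With the GC trend removed both were short of 2-fold, at 0.91 and 0.81. Klf10 and Leo1 followed, at 0.66 and 0.62, while Wee1, a classic E-box target of the cell cycle, was at 0.04 (95% interval −0.05 to 0.13).

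**Figure D5:**
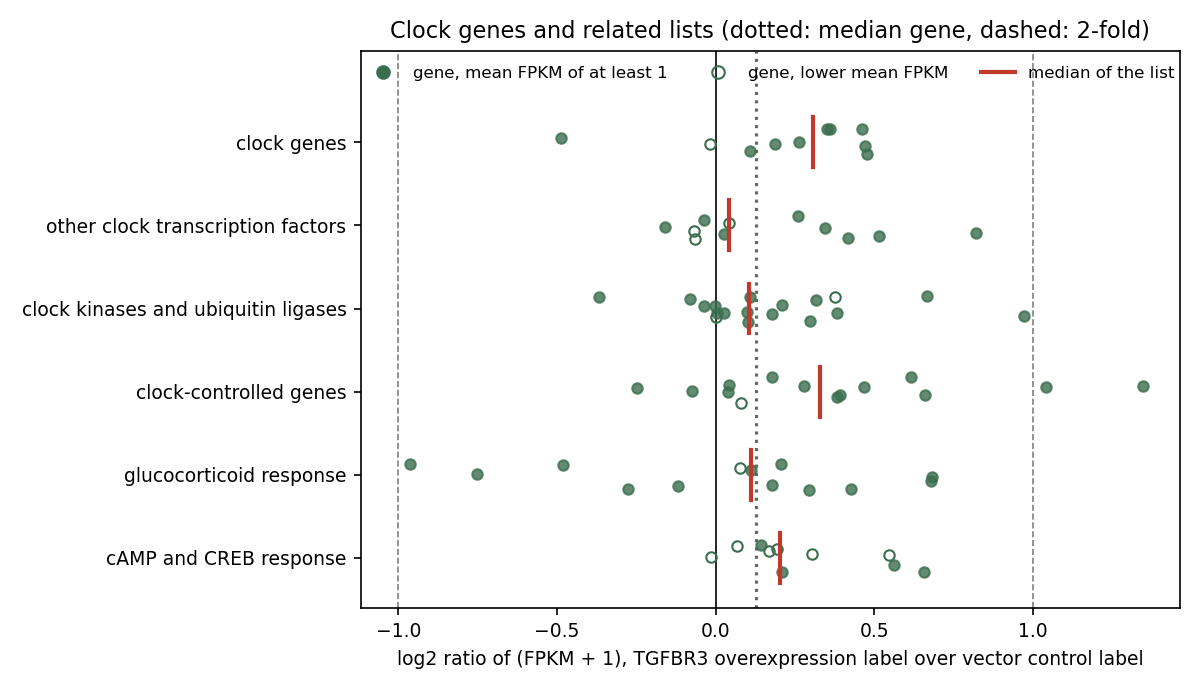
Log2 ratio of (FPKM + 1) of each gene (points, open where the mean FPKM is below 1) in the clock genes and 5 related lists, with the median of each list in red. Medians ran from 0.04 in the other clock transcription factors to 0.33 in the clock-controlled genes, and the points right of the dashed 2-fold line are Nampt and Noct.

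Because both media held dexamethasone and IBMX, the genes that answer to them are given beside the Per genes. The 13 glucocorticoid response genes had a median of 0.11, with 8 above 0, near the 63.1% of all genes, 5 below and none 2-fold different. Mt1 (log2 ratio −0.96) and Mt2 (−0.75) were the lowest and Pdk4 and Nr3c1, the glucocorticoid receptor gene, the highest at 0.68 each. Fkbp5 and Tsc22d3, which glucocorticoids induce in most cells, were at −0.28 and −0.12, in the direction opposite to Per1, as was Ddit4 (−0.48). Sgk1 (0.43), Dusp1 (0.29), Errfi1 (0.21), Klf9 (0.18), Zbtb16 (0.11) and Klf15 (0.08) were in the same direction as Per1. Of the 10 genes of the cAMP response 9 had a ratio above 0. The 63.1% of all genes above 0 is over genes averaging 1 FPKM or more, which only 4 of the 10 did. The median of the 10 was 0.20, or 0.39 over those 4. Removal of the GC trend left 6 above 0 and a median of 0.09. None was 2-fold different with the added 1, while without it Nr4a1 (1.01), Nr4a3 (1.42) and Pde4b (1.47) were higher by over 2-fold. Nr4a3 was near the floor, at 0.08 and 0.03 FPKM from 32 and 18 counts. Without the added 1, 735 of the 11213 genes averaging 1 FPKM or more were at least 2-fold higher. Nr4a1 (0.66, 95% interval 0.54 to 0.77) and Crem (0.56, 95% interval 0.47 to 0.65) had the largest values among those 4, from 641 against 435 and 763 against 526 counts. Nr4a1 was at 0.72 and Crem at 0.13 once the GC trend was removed. The part of either signal in the values of the clock genes was not tested.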

How the data were processed

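RNA of transfected primary mouse FAPs was sequenced as paired reads of 150 nt, 1 library per condition. According to the paper's methods the authors used STAR for mapping to mm10 after trimming, and FeatureCounts for counting, whereas the submitters' processing notes list cutadapt 1.9, HISAT2 2.2.1, StringTie 2.1.6, DESeq2 and edgeR. The annotation release is not given in the sources used here. The authors deposited a raw count and an FPKM value, rounded to 2 decimals, for each gene. For all 10 clock genes the deposited FPKM differed by less than 1% from counts scaled by GENCODE M21 exon length and 1 total per library. The members and lists were chosen with earlier results of these data known.

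Ratios were computed as log2 of (FPKM + 1), so the change of low genes is understated, with 2-fold as the threshold. The design assumed that there might be no counts. These were deposited and served for the intervals, and no count model was run without replicates. Intervals of differences between genes are normal intervals on log counts. Libraries were made with a KC-Digital Stranded mRNA kit, by the study's methods. Whether molecular identifiers were read and used in the counts is not given in the sources used here, and reads that are PCR copies are not independent molecules. Intervals cover counting error only and are narrower at higher depth. All 10 members are named. Of each other list, up to 4 genes with the largest ratios at a mean FPKM of at least 1 are named, and others where their role bears on a member. The trends over GC content and exon length were removed by subtracting bin medians (20 bins, 11207 genes). Alternatives were another pseudocount, plain ratios, centring, rescaling, CPM, both trends and a 1.5-fold threshold. Calculations were tested on simulated data. Python 3.11.15, numpy 2.4.6, pandas 2.3.3 and scipy 1.17.1 were used. Coordinates are those of GENCODE M21 on mm10, which holds 99.7% of the gene identifiers.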

Additional observations from a re-analysis of the deposited data

How the results depend on the processing

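No clock gene reached 2-fold in either direction under any of the 8 alternative scales. On the scale of (FPKM + 1) as deposited none reached 1.5-fold. Dbp did when centred (−0.61) and with plain ratios (−0.59). Clock did with CPM (0.76), a pseudocount of 0.1 (0.77) and plain ratios (0.83), and Cry1 with the latter pair (0.61 and 0.63). The share of all genes past 1.5-fold was counted only with the added 1, as deposited and centred. The median log2 ratio of the clock genes, 0.31, was 0.38 with a pseudocount of 0.1 and with plain ratios (0.381 and 0.384), 0.18 when centred, 0.15 with the GC trend removed and 0.091 with the exon length trend removed. The output arm minus the activator arm, −0.06, was −0.14 with a pseudocount of 0.1, −0.17 with plain ratios, −0.15 with CPM, 0.082 with the GC trend removed, 0.021 with the exon length trend removed and 0.048 with plain ratios and the GC trend removed, a combination chosen after seeing the data. Across all genes, 352 were 2-fold higher, 645 with a pseudocount of 0.1 and 735 with plain ratios. The 116 that were 2-fold lower became 192, 206 and, when centred, 183. Clock, Per1, Per2, Cry1, Cry2, Nr1d1 and Dbp kept their sign under all 8 alternatives. Arntl was below 0 under 4 of the 8, Nr1d2 under 2 and Per3 above 0 under 1. The cause of these differences was not tested. With 1 library per condition no replicate could be left out.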
